A study of Mus musculus with 2 samples.

Results

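Mir143 and Mir145a are neighbouring microRNA genes that are read from 1 primary transcript and are best known from smooth muscle. They were taken from the deposited tables by their gene identifiers, and make up 2 of the 1973 microRNA genes there. Small RNA with inserts below 30 nt came from whole lung of B6NCrl mouse embryos at embryonic day 15.5, of both sexes and described as healthy. There was 1 group, embryonic lung, with no treatment and no genetic change given in the labels. It had 2 libraries, each made from its own pool: 78 embryos gave replicate 1 and 62 embryos gave replicate 2. Both pools carry the same donor identifier. Each SD below therefore measures only how these libraries vary, which takes in the pooling of embryos, the dissection and the preparation. The p-values below do not measure that variation.

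A microRNA is cut from a hairpin precursor, loaded into an Argonaute protein, and pairs through its seed (bases 2 to 8) with messenger RNAs, which lowers their output. In mice, the primary transcript of Mir143 and Mir145a is driven by serum response factor with myocardin family coactivators. Their products favour the contractile state of smooth muscle and restrain regulators such as Klf4, Klf5 and Elk1. In the lung, smooth muscle wraps the growing airways and the vessels beside them.

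Other microRNA genes are used below as marks against which the level of the pair is read, and their mature sequences show what was being counted beside it. The sequences are from RefSeq (GRCm38.p6), written 5′ to 3′, with the seed in capitals. miR-322 and miR-126a come from the genes next in abundance to Mir143, an X-linked cluster member and the endothelial microRNA. The other 5 belong to the miR-200 family of epithelium, which falls into 2 seed groups that differ at a single base. The deposited counts are per precursor and do not separate the arms, so the arm shown is 1 of those a count may hold.
miR-322-5p: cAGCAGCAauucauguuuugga
miR-126a-3p: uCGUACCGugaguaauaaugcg
miR-429-3p: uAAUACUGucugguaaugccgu
miR-200c-3p: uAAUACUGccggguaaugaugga
miR-200b-3p: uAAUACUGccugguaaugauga
miR-200a-3p: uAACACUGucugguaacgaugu
miR-141-3p: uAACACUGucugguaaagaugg

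Depth was close in the libraries. Replicate 1 held 5354530 counts on the annotated strand of microRNA genes and replicate 2 held 6489390, so that a single count stood for 0.187 and 0.154 CPM (counts per 1000000 gene counts). A gene without counts could have been present at up to 0.560 and 0.462 CPM, the worth of 3 counts. Reads mapped to several places made up 31.4% and 30.6% of all reads and stand outside the gene counts. That limit therefore does not hold for genes that share sequence with others. Markers of other cell types are given beside the results they touch, with those that had no count. As in any bulk tissue, few cells of a type and little RNA per cell cannot be told apart.

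By its gene counts, which leave out reads mapped to several places, Mir143 ranked first of all microRNA genes in the embryonic lung, and Mir145a ranked 93. Mir143, which carries most reads of the locus, had 410301 counts (76627 CPM) in replicate 1 and 531873 counts (81960 CPM) in replicate 2. It held rank 1 in each library. Its mean was 79294 ± 3771 CPM (SD, n = 2), on the scale of counts per precursor. As a share of all gene counts this was 7.66% in replicate 1 (95% exact binomial interval, 7.64 to 7.69) and 8.20% in replicate 2 (8.17 to 8.22). The intervals do not overlap. Intervals and floors here cover the counting error of reads only. Reads were not tallied by molecular identifier, so copies of the same molecule count separately and the intervals can be too narrow.

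Mir145a had 5344 counts (998 CPM) in replicate 1 and 7305 counts (1126 CPM) in replicate 2. It stood at rank 95 in replicate 1 and rank 89 in replicate 2. Its mean was 1062 ± 90.3 CPM (SD, n = 2), rank 93 of the 357 genes detected, that is with 10 or more counts in each library. The median detected gene had 123 CPM, and Mir145a was 8.64-fold above it. Its share of the gene counts was 0.0998% (interval 0.0971 to 0.103) in replicate 1 and 0.113% (0.110 to 0.115) in replicate 2. Both members were detected, where 18.1% of all 1973 genes were.

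**Figure D1:**
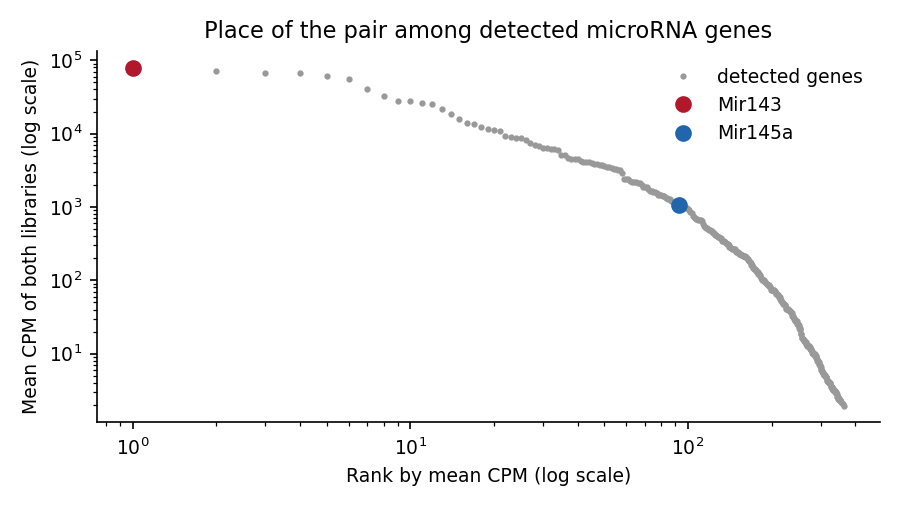
Mean CPM of both libraries (log scale) against rank (log scale) for the 357 detected microRNA genes, with Mir143 in red and Mir145a in blue. Mir143 opens the curve at 79294 CPM and Mir145a lies at rank 93 with 1062 CPM.

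Neither member had a single read on the opposite strand. That was 0 against 410301 counts for Mir143 in replicate 1 and 0 against 531873 in replicate 2, which allows an opposite-strand share of up to 0.000731% and 0.000564%. For Mir145a it was 0 against 5344 and 0 against 7305, which allows up to 0.0561% and 0.0411%. Over all genes, reads on the opposite strand summed to 160572 in replicate 1 and 192195 in replicate 2. The counts of the pair are therefore the same with strand and without it. A lack of such reads was not particular to the pair. The log2 ratio of the pair over the epithelial miR-200 family was 1.3408 with strand and without it, so that family lacked them too. The share of all genes without such reads was not computed.

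In the mm10 assembly (GRCm38), with the annotation of GENCODE M21, Mir143 (ENSMUSG00000065445.2 in the tables) lies on chromosome 18 at 61649196 to 61649258, minus strand. Mir145a (ENSMUSG00000065592.1) lies at 61647825 to 61647894 on the same strand. On that strand Mir143 comes first and Mir145a follows 1301 bp further on, and no other precursor of the tables falls in their group. In GENCODE M21 no other gene overlaps either precursor. There the long noncoding gene Carmn, known as a smooth muscle transcript and as the host of the pair, ends 366 bp before Mir143. In RefSeq of the same assembly Carmn runs from 61645878 to 61665538, and it holds both precursors and extends 1947 bp past Mir145a. The pair is thus intergenic in the first annotation and inside a noncoding host in the second. Bvht, a long noncoding gene known from cardiac commitment in mice, lies on the plus strand and ends 352 bp from Mir145a. Carmn, Bvht and the messenger RNAs of smooth muscle were not counted in these tables, so the pair was read against other microRNAs.

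**Figure D2:**
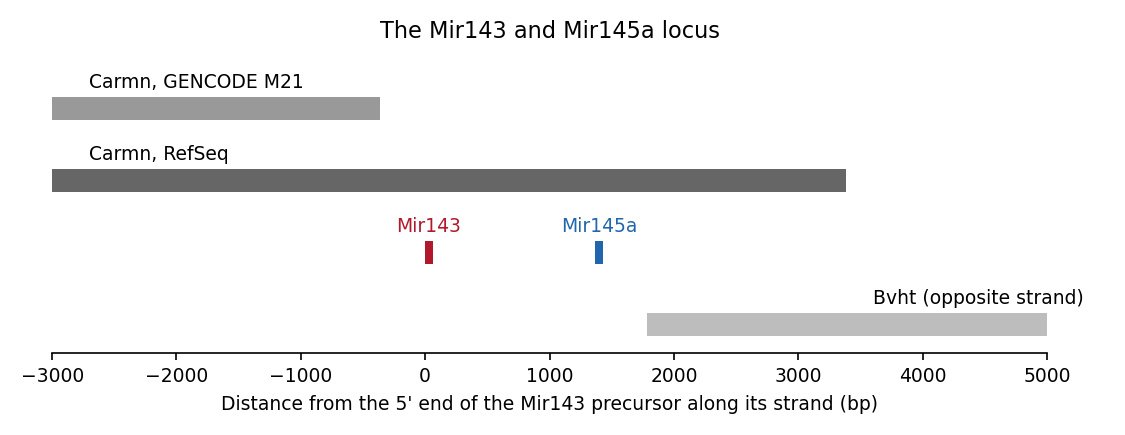
Map of the locus by distance in bp from the 5′ end of the Mir143 precursor, along the strand of the pair. The bars are the 2 precursors, Carmn in each annotation (cut off at the left edge) and Bvht on the opposite strand (cut off at the right edge). Mir145a starts 1364 bp after the start of Mir143, and the RefSeq bar of Carmn covers both while the GENCODE bar stops short of them.

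The precursors differ in size and fold as well as in counts. Mir143 is annotated with 63 nt and Mir145a with 70 nt, against a median of 84 nt over the 357 detected genes. G and C made up 55.6% of the Mir143 precursor and 48.6% of the Mir145a precursor, beside a median of 50.6% over detected genes. The predicted minimum free energy was -36.9 kcal/mol for Mir143 and -30.3 kcal/mol for Mir145a, with a median of -37.3 kcal/mol. Of the 357 detected genes, 51.5% had a lower energy than Mir143 and 78.7% a lower energy than Mir145a. Energies of whole annotated hairpins depend on where the annotation ends, and whether fold or base composition bears on the counts was not tested.

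Neither member shares a run of 20 nt with another precursor. No other of the 1894 precursors with a sequence shares 20 nt with Mir143 or with Mir145a, on either strand, whereas 48.8% of those precursors and 21.3% of detected genes share 20 nt or a mature sequence with another. The longest run that Mir143 has in common with any other precursor was 11 nt. For Mir145a it was 17 nt, found in Mir145b, its namesake elsewhere on the chromosome. Mir145b had 1 count in replicate 1 and 0 counts in replicate 2, beside 5344 and 7305 counts for Mir145a. By this measure reads of the pair of 20 nt or longer had no second exact place among the precursors. Shorter reads of Mir145a that lie within the run of 17 nt could also match Mir145b. How many reads of the pair mapped elsewhere in the genome was not measured.

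The comparison within the locus asked how unequal the products of 1 primary transcript were. In replicate 1 Mir143 exceeded Mir145a 76.8-fold, a log2 ratio of 6.26 (95% exact binomial interval, 6.22 to 6.30), and in replicate 2 it did so 72.8-fold, a log2 ratio of 6.19 (6.15 to 6.22). The mean log2 ratio was 6.22 ± 0.0541 (SD, n = 2), so the difference was far larger than the spread between the libraries. Mir143 held 98.7% of the counts of the pair in replicate 1 and 98.6% in replicate 2, and Mir145a held 1.29% and 1.35%. Divided by the annotated length of each precursor, the levels differed 83.1-fold (log2 ratio 6.38). Adapter ligation and amplification can favour some sequences over others in both libraries alike, and their part in this ratio was not tested.

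Set beside other polycistrons, that gap was large without being extreme. Neighbouring precursors of the same strand, no more than 10000 bp apart, formed 41 groups with 2 or more detected members, and the highest member exceeded the lowest more than 10-fold in 26 of them (63.4%). The gap of Mir143 over Mir145a, 74.7-fold between mean CPM values, was the 12th largest of the 41, whose median was 19.4-fold. Among the 26 groups with exactly 2 detected members it was the 4th, and the median there was 10.7-fold. Larger gaps in such groups were those of Mir99a over Mirlet7c-1 (236-fold), Mir30e over Mir30c-1 (234-fold) and Mir130b over Mir301b (98.4-fold), followed after the pair by Mir214 over Mir199a-2 (70.1-fold). The low member shares sequence with another precursor in the groups of Mir99a, Mir30e and Mir214, so part of its reads can be missing from the counts. In the 13 such groups where no member shares sequence, the gap of the pair was the 2nd largest, after Mir130b over Mir301b, with a median of 7.82-fold.

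At the other end, Mir374b exceeded Mir421 1.32-fold, Mir181c exceeded Mir181d 1.41-fold and Mir221 exceeded Mir222 1.48-fold. The next were Mir192 over Mir194-2 (1.66-fold) and Mir296 over Mir298 (1.76-fold). Mir194-2 shares sequence with another precursor, so part of its reads can be missing and that gap is uncertain. In the pair the member transcribed first is the higher one. The first member was the higher one in 13 of the 26 groups with 2 detected members (50.0%), so the order seen at this locus was as common as the reverse.

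**Figure D3:**
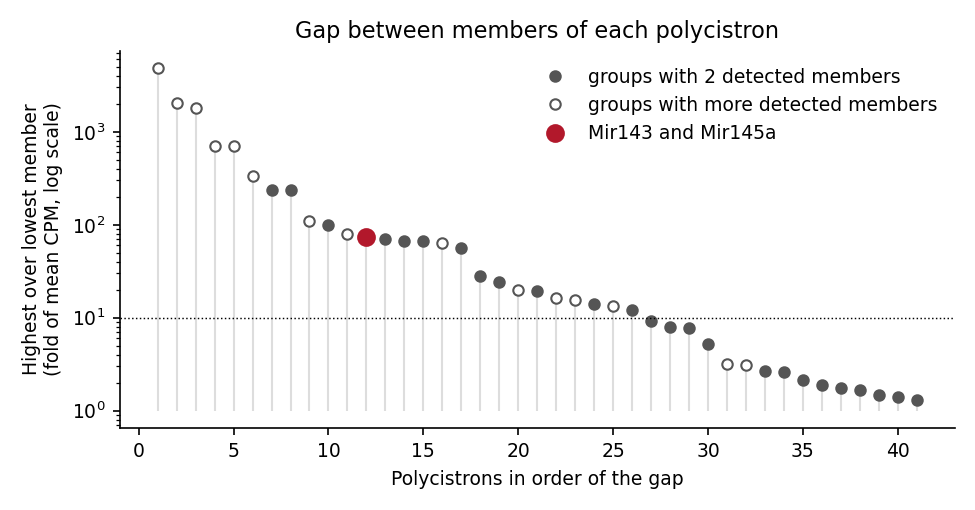
Highest over lowest detected member (fold of mean CPM, log scale) in each of 41 polycistrons, in order of the gap. Filled points are groups with exactly 2 detected members, open points are larger groups and the red point is the pair, at 74.7-fold and place 12. The dotted line marks 10-fold, which 26 groups exceed.

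The order at the top of the table was close. Mir322, whose miR-322-5p sequence is given above, had 71997 CPM in replicate 1 and 68840 CPM in replicate 2. Mir143 was 1.06-fold higher than Mir322 in replicate 1 (log2 ratio 0.09) and 1.19-fold higher in replicate 2 (log2 ratio 0.25). The mean log2 ratio of Mir143 over Mir322 was 0.17 ± 0.114 (SD, n = 2), about 1.5 times its SD, so the 2 genes differ little beyond the spread between the libraries. Mirlet7g, of the let-7 family and at rank 4 in mean CPM, had 64732 CPM in replicate 1 and 68872 CPM in replicate 2. It was below Mir322 in replicate 1 and just above Mir322 in replicate 2. The log2 ratio of Mir143 over Mirlet7g was 0.24 in replicate 1 and 0.25 in replicate 2.

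The endothelial mark Mir126a, a microRNA of blood vessel lining, had 68906 CPM in replicate 1 and 67001 CPM in replicate 2. Mir143 exceeded it by a log2 ratio of 0.15 in replicate 1 and 0.29 in replicate 2, with a mean of 0.22 ± 0.0972 (SD, n = 2). The pair as a whole had 77625 CPM in replicate 1 and 83086 CPM in replicate 2. The 5 genes of the epithelial miR-200 family summed to 31937 CPM in replicate 1 and 31476 CPM in replicate 2. The log2 ratio of the pair over the family was 1.34 ± 0.0842 (SD, n = 2), a 2.53-fold difference that was many times the spread. Mir145a alone was below 4 of the 5 family members, namely Mir429, Mir200c, Mir200b and Mir141, in both libraries.

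For each of these 4 comparisons, of Mir143 with Mir145a, Mir126a and Mir322 and of the pair with the miR-200 family, the direction was the same in 2 of 2 libraries. Mir322 was chosen from these same counts as the gene next in rank after Mir143, so its lower mean was fixed by that choice. Mir143 held rank 1 in each library, so its direction over any single gene follows from that rank. Exact 2-sided permutation tests of log2 CPM gave p = 0.333 each, and 0.333 after Benjamini-Hochberg adjustment over the 4. The tests did not use the pairing of values within a library. That p is the smallest that 2 values against 2 can give, so no comparison could pass a threshold of 0.05. It arises whenever both values of 1 side exceed both of the other, whatever the size of the ratio. Per base of precursor, the mean log2 ratio of Mir143 was 0.43 over Mir126a and 0.76 over Mir322, and that of the pair was 1.59 over the miR-200 family.

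Around Mir145a the order did not hold between the libraries. The genes just above it in mean level were Mir10b (1082 ± 130 CPM), Mir674 (1081 ± 19.7 CPM) and Mir467e (1081 ± 39.6 CPM), and those just below were Mir467d (1061 ± 5.58 CPM), Mir1983 (1038 ± 8.32 CPM) and Mir467c (994 ± 11.1 CPM; SD, n = 2 for each). In replicate 1 Mir145a was below the first 5 of these 6 genes, and in replicate 2 it was above all 6. The sign of its log2 ratio thus turned between the libraries for 5 of the 6, with Mir467c the exception. Mir467c, Mir467d and Mir467e share sequence with other precursors and may be undercounted.

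The list of microRNAs studied in the contraction or growth of smooth muscle held 22 genes, of which 20 were matched in the tables and 15 were detected. Mir1a-2 and Mir24-1 were not matched, and 79 identifiers of the tables have no name here. Besides the pair, 13 were detected, and like every other gene they lay below Mir143. Mir145a was exceeded by 4 of the 13 and was above the other 9, also when levels were divided by precursor length. Over all genes it ranked 93 of the 357 detected, so most detected genes of any kind also lay below it. The whole list took 15.0% of the gene counts in replicate 1 and 15.6% in replicate 2, and Mir143 alone took 7.66% and 8.20%.

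The 4 genes above Mir145a were Mir10a, Mir23b, Mir21a and Mir27b. Mir10a, encoded in a HOX cluster, had 32014 CPM in replicate 1 and 33265 CPM in replicate 2. Mir23b had 27783 CPM and 27406 CPM, and its neighbour Mir27b had 2233 CPM and 2285 CPM. Both share sequence with their paralogs, which makes these counts uncertain. Mir21a, linked to growth and repair in smooth muscle and fibroblasts, had 8982 CPM in replicate 1 and 8423 CPM in replicate 2. Mir143 was 9.11-fold above Mir21a in mean CPM, and Mir145a was below Mir21a in both libraries.

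The other 9 lay below Mir145a in both libraries. Mir221, studied in the growth of vascular smooth muscle, had 286 CPM in replicate 1 and 266 CPM in replicate 2, and Mir222, its X-linked neighbour, had 194 CPM and 178 CPM. Mir31 had 192 CPM in replicate 1 and 210 CPM in replicate 2. In mean CPM, Mir143 was 287-fold above Mir221, 426-fold above Mir222 and 395-fold above Mir31, and even Mir222, the lowest of the 3, ranked 166 of the 357 detected genes. Mir146, the gene of miR-146a, had 239 ± 19.2 CPM (SD, n = 2). Mir24-2 (222 ± 25.4 CPM), Mir155 (102 ± 32.9 CPM), Mir204 (94.1 ± 7.31 CPM), Mir26a-2 (46.3 ± 5.20 CPM) and Mir26a-1 (10.1 ± 0.0485 CPM; SD, n = 2 for each) were the other detected members. Mir146, Mir24-2, Mir26a-1 and Mir26a-2 share sequence with other precursors, and reads mapped to several places may be missing from them.

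The undetected list members were those shared with striated muscle, and Mir145b. Mir133b had 7 counts in replicate 1 and 12 counts in replicate 2, while no count in either library fell on Mir133a-1, Mir133a-2 or Mir1a-1. These 4 share sequence with other precursors, so their low counts and counts of 0 were not read as absence. Mir1a and Mir133a are known from heart, skeletal and smooth muscle.

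**Figure D4:**
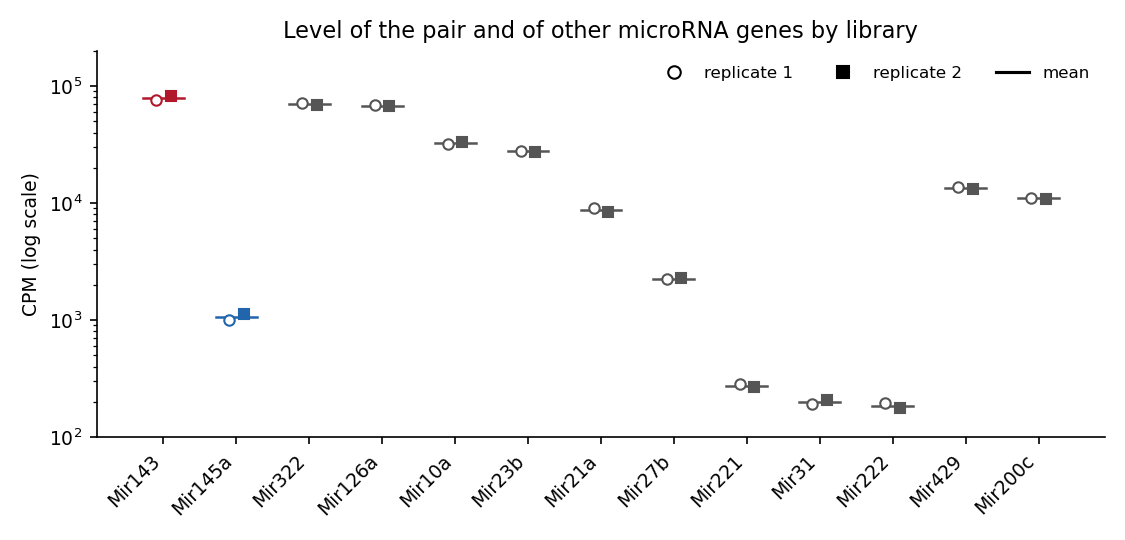
CPM (log scale) of the pair and of other microRNA genes in each library. Open circles are replicate 1, filled squares replicate 2 and horizontal lines the mean. Mir143 lies at 76627 and 81960 CPM, above every other gene shown, and Mir145a lies at 998 and 1126 CPM, below Mir27b and above Mir221, Mir31 and Mir222.

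MicroRNAs of mesenchyme, fibroblasts and cartilage made up a list of 17 genes, of which 15 were detected. Together they took 10.03% of the gene counts in replicate 1 and 9.45% in replicate 2. Mir10a and Mir21a stand in this list and in the smooth muscle list, and account for 4.10% and 4.17% of the gene counts in each sum. Like every other gene, all 15 lay below Mir143 in mean CPM. Mir145a was exceeded by 7 of the 15 and was above the other 8. Most of these 8 share sequence with other precursors, and reads mapped to several places may be missing from them. None of the 7 above Mir145a shares sequence. Mir99a led with 43797 CPM in replicate 1 and 37949 CPM in replicate 2, and Mir143 was 1.94-fold above it in mean CPM. Mir214, which lies in a transcript of the dynamin 3 locus and marks mesenchyme, had 5129 CPM in replicate 1 and 5186 CPM in replicate 2, which is 4.86-fold above Mir145a and 15.4-fold below Mir143 in mean CPM. By these counts the list fell on both sides of Mir145a, which ranked 93 of all 357 detected genes.

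The pair moved little between the pools, and in 1 direction. The log2 ratio of replicate 2 over replicate 1 was 0.10 for Mir143 (95% exact binomial interval, 0.09 to 0.10) and 0.17 for Mir145a (0.12 to 0.22), so each was higher in replicate 2, by 1.07-fold and 1.13-fold. Over the 357 detected genes the median absolute log2 ratio was 0.14, and 51.0% of the genes were higher in replicate 2. An absolute ratio larger than that of Mir143 was found for 62.7% of detected genes, and one larger than that of Mir145a for 40.3%. Both members thus moved by about as much as the median detected gene. That median takes in genes with as few as 10 counts, whose counting error is larger. The genes next to Mir143 in rank moved less, at -0.06 (Mir322), -0.04 (Mir126a) and 0.09 (Mirlet7g). Of the genes around Mir145a named above, Mir10b moved more (-0.25) and the others less (0.01 to 0.07). The intervals of the 2 members exclude 0, and they cover counting error and not the variation between pools.

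The summed markers of other tissues that can be dissected with the lung had larger ratios, though not every gene in them did. The striated muscle list, with 4 of 8 tabulated members detected and Mir1a-1, Mir133a-1 and Mir133a-2 at 0, summed to 929 CPM in replicate 1 and 1239 CPM in replicate 2, a log2 ratio of 0.42. Its members went in different directions, with Mir208b at 269 and 780 CPM and Mir208a at 573 and 255 CPM in replicates 1 and 2. The hepatocyte mark Mir122 had 470 CPM in replicate 1 and 278 CPM in replicate 2, a log2 ratio of -0.76. The erythroid genes Mir451a and Mir144 summed to 684 CPM and 833 CPM (log2 ratio 0.28), with log2 ratios of 0.39 for Mir451a and 0.06 for Mir144. The striated muscle sum was below Mir145a in replicate 1 and above it in replicate 2, the other sums were below Mir145a in both libraries, and all were far below Mir143. Their part in the difference of the pair between the pools was not tested.

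Within the lung, the endothelial Mir126a had a log2 ratio of -0.04 and the miR-200 family one of -0.02, and the mesenchymal list had one of -0.09. Of 15 detected mesenchymal genes 8 were higher in replicate 2, and of the 13 detected smooth muscle genes besides the pair 5 were. The leukocyte list, with 3 of 3 tabulated members detected, had a log2 ratio of -0.15. The neural list, with Mir137 the 1 detected of 6 matched members, had one of -0.60. Its members Mir124a-1, Mir124a-2, Mir124a-3 and Mir9-2 had 0 counts in both libraries. They share sequence with other precursors, so these counts of 0 were not read as absence. With 2 libraries these ratios are a description, and no ratio was tested.

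**Figure D5:**
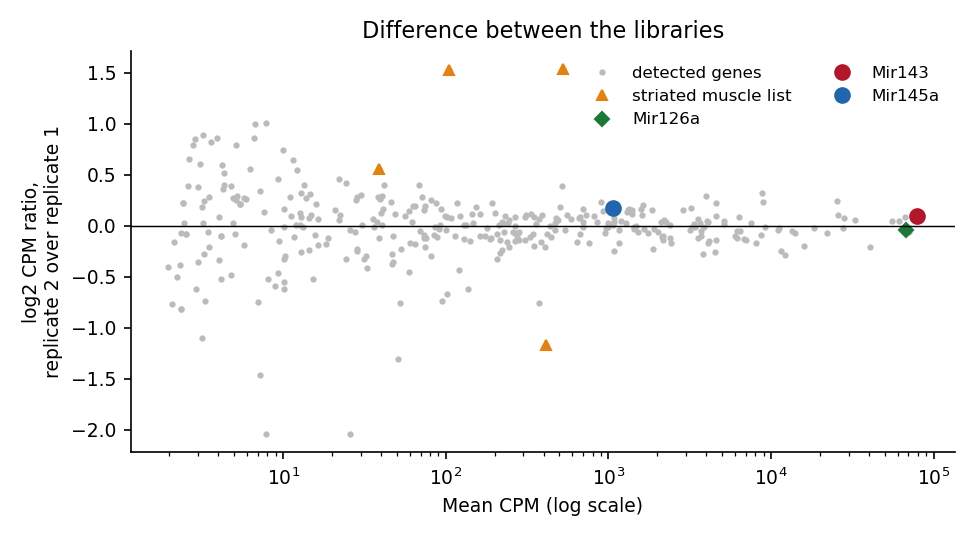
The log2 CPM ratio of replicate 2 over replicate 1 against mean CPM (log scale) for the 357 detected genes. Mir143 (red) lies at 0.10 and Mir145a (blue) at 0.17, inside the band of the other genes, while striated muscle genes (orange triangles) spread between -1.17 and 1.53.

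Among 253 other genes with at least 100 counts in each library, those with the ratio between the pools nearest to that of Mir143 were Mir181c, Mir30b, Mir27a, Mir381 and Mir3102, with log2 ratios of 0.09 to 0.10. Those nearest to Mir145a were Mir181d, Mir148b, Mir326, Mir421 and Mir107, with log2 ratios of 0.16 to 0.18. Mir145a was not among the 5 nearest to Mir143, nor Mir143 among the 5 nearest to Mir145a. Likeness over 2 libraries rests on 1 number per gene and is given as a description.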

How the data were processed

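Counts were deposited per microRNA precursor gene, raw and not normalized. The authors used mm10 and annotation M4, as each library's readme states, and no source used here names their aligner or counter. Each table has 3 count columns, which by their sums are reads on any strand, on the annotated strand and on the opposite strand, and 4 summary lines, kept out of library sizes. Of all reads in replicates 1 and 2, 16.8% and 17.2% were unmapped and 3.37% and 2.80% fell in no gene. The annotated strand was used. CPM, means and SDs were computed over 2 libraries, with exact binomial intervals (Clopper-Pearson) and exact permutation tests (scipy 1.17.1, Python 3.11.15). Of 1973 identifiers, 1894 matched GENCODE M21 with the version ignored. The list entry Mir146a was matched as Mir146, its symbol there. Folding energies came from RNAfold 2.7.2. Scaling by TMM (edgeR 4.0.16) and by size factors (DESeq2 1.42.0), other minimum counts and the total without Mir143 were alternatives. Alternatives per precursor base, except for Mir143 over Mir145a, were chosen after seeing the data. With 1 group there was no comparison of conditions.

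The members, 10 lists and tests were chosen with earlier results of these data known. Named genes were the members, the 3 genes on either side in rank, up to 4 of the highest detected genes of a list, all of the smooth muscle list, the 5 nearest in replicate ratio with at least 100 counts in each library, and the 5 largest and 5 smallest gaps among polycistrons with 2 detected members. The replicate ratio and its interval were tested on simulated data beforehand.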

Additional observations from a re-analysis of the deposited data

How the results depend on the processing

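Of 52 values recomputed for 11 results, 45 were within the limits set for them and 7 moved beyond them. No ratio changed sign. With 2 libraries, leaving out 1 could not move a level or a ratio within libraries beyond its SD. Ratios within libraries taken per base or without regard to strand were judged by sign only. Per base, each of these ratios differed from its reported value by more than its SD, as with Mir143 over Mir322 (0.76 against 0.17 ± 0.114). Per 1000000 of all reads, summary lines included, Mir143 came to 37631 counts and Mir145a to 504 counts. With Mir143 left out of the total, Mir145a came to 1154 CPM. The log2 ratio of Mir143 between the pools, 0.0971 as reported, was 0.104 with TMM, 0.0910 with DESeq2 size factors and 0.128 per 1000000 of all reads, each outside its narrow counting interval. With members that share sequence left out, 26 groups kept 2 or more members. Of these, 14 exceeded 10-fold (53.8%), and the pair stood at place 8. The rank of Mir143 was 1 in each alternative run, and that of Mir145a lay between 83 (per precursor base) and 101 (reads of either strand). Without replicate 1 the log2 ratio of Mir143 over Mir322 was 0.25, and without replicate 2 it was 0.09, against 0.17 as reported, and the value without replicate 2 differs by over 1.5 times. With 1 group and 2 libraries no test could pass its threshold. How many of the reads mapped to several places belong to genes with copies was not measured.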
